A study of Mus musculus with 2 samples.

Results

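The cells described here were knockout barcodes of a single-cell RNA library that carried at least 2 unique molecular identifiers (UMIs, counted RNA molecules) of Gsc and fewer than 3 of Mesp1. Of the 7383 knockout barcodes kept, 270 met both limits, a share of 3.66% (exact binomial 95% interval 3.24 to 4.11%), out of 16610 kept barcodes in the series. The cells were thus chosen by their own Gsc and Mesp1 UMI counts, and the contrast with them by Gsc, Mesp1 and T counts. They are called Gsc-positive, Mesp1-low cells below. The study profiled AB2.2, an established mouse embryonic stem cell line, after 4 days of mesendoderm differentiation, with 1 droplet library of PHD2 knockout cells and 1 of wild type cells. Egln1 is the gene of PHD2, an enzyme that hydroxylates hypoxia-inducible factors when oxygen is present. Neither the altered part of Egln1 nor whether the knockout line is a single clone is stated in the sources used here. All comparisons between cell groups below were made within the knockout library, so cells are not replicates, no test between groups was possible, and every interval covers counting error only. A few values of the wild type library are set beside those of the knockout library as descriptions. The reference for most comparisons was 3425 knockout barcodes with at least 3 UMIs of T (Brachyury), no Gsc UMI and fewer than 3 Mesp1 UMIs, called comparison cells.

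Gsc encodes Goosecoid, a homeodomain transcription factor of the anterior primitive streak and the gastrula organizer. In the mouse embryo, epiblast cells at the anterior streak respond to high Nodal signalling with Gsc, Lhx1, Mixl1, Eomes and Foxa2, and give rise to definitive endoderm, prechordal plate and node derivatives. Cells leaving the streak as early mesoderm express Mesp1, and cells of the posterior streak express Cdx2 and Hox genes.

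The UMI counts behind the choice were low, and Gsc, Mesp1 and T are therefore given as descriptions. Gsc was read 2 times in 106 of the 270 cells, 3 times in 64, 4 times in 48, and at most 14 times in 1 cell. Mesp1 had no UMI in 148 of them, 1 UMI in 78 and 2 UMIs in 44. Although the limits did not ask for T, 213 of the 270 cells carried at least 3 T UMIs, with a median of 7 T UMIs over the 270 cells against 8 in comparison cells. Median depth was 22830 UMIs and 4036 genes in Gsc-positive, Mesp1-low cells and 21714 UMIs and 3955 genes in comparison cells, and mitochondrial shares had medians of 1.37% and 1.36%. Of the cell barcodes, 22 occurred in both libraries, among them 0 of the Gsc-positive, Mesp1-low cells and 9 of the comparison cells. Summed UMIs were 6592499 and 83032497. Levels are given in CPM, the UMIs of a gene scaled to 1000000 UMIs of its cell group. Egln1, the targeted gene, stood at 13.7 CPM in the knockout library and 18.1 CPM in the wild type library, and within the knockout library at 18.5 CPM in Gsc-positive, Mesp1-low cells and 13.8 CPM in comparison cells.

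The sequences just upstream of 4 of the genes that the results turn on are shown so that the genes can be placed: Gsc, which chose the cells, Lhx1 and Eomes, its fellow anterior streak regulators, and Dkk1, a secreted Wnt antagonist among the 15 genes with the highest ratios over comparison cells. Each line holds the 250 bases before the RefSeq transcription start (GRCm38.p6, the mm10 build), 5′ to 3′ on the strand of the gene. The windows lie at chr12:104473237-104473486 on the minus strand for Gsc, chr11:84525535-84525784 on the minus strand for Lhx1, chr9:118477939-118478188 on the plus strand for Eomes, and chr19:30549497-30549746 on the minus strand for Dkk1. Capitals mark matches, on either strand, to 7 searched motifs spelled out in the next paragraph.
Gsc: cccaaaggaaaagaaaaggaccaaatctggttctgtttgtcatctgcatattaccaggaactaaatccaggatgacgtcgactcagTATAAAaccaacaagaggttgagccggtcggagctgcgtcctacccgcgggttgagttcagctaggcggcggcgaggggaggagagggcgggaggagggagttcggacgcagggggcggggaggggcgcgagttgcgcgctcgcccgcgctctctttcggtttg
Lhx1: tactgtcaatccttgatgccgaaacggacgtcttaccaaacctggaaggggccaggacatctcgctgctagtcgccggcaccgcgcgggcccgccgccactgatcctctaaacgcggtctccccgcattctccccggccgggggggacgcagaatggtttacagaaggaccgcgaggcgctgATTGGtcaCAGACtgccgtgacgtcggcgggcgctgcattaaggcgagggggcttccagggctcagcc
Eomes: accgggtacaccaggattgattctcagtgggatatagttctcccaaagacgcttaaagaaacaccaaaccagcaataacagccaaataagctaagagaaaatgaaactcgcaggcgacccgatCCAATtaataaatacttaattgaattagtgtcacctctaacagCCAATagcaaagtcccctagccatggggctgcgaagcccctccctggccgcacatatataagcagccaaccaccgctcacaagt
Dkk1: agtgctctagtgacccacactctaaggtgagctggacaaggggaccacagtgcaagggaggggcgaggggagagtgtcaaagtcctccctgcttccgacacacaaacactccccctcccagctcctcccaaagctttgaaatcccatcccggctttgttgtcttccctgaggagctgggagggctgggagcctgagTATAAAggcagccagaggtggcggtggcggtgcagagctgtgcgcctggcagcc

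The motifs searched were TAATCC (Gsc and Otx-type homeodomain), AATCCACA (FoxH1), TCACACC (Brachyury), CTTTGAT (TCF), CAGAC (SMAD), TATAAA (the core promoter element) and CCAAT (the NF-Y element). The Gsc window held TATAAA, whose first base lay at position -164 from the start. The Lhx1 window held CAGAC at -60 and, on the other strand, CCAAT at -68. The Eomes window held CCAAT at -127 and -84, and the Dkk1 window held TATAAA at -54. Among upstream windows of 27025 genes, CAGAC occurred in 42.1%, CCAAT in 34.5% and TATAAA in 12.97%, so matches to these short strings were common. TAATCC occurred in 6.38% of windows, AATCCACA in 0.751%, TCACACC in 3.31% and CTTTGAT in 3.23%. Of the 15 genes with the highest ratios described below, 11 had a window. CAGAC was found in 4 of these 11, CCAAT in 4, TATAAA in 1, and the other motifs in 0.

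The remaining anterior streak markers were checked first, since only Gsc had been used to pick the cells. Lhx1, Mixl1 and Eomes were all several-fold higher in Gsc-positive, Mesp1-low cells, whereas Foxa2 was found in few of them and Cer1, Chrd, Sox17, Noto and Shh were at or near 0. Lhx1, a LIM homeodomain factor needed for head organizer function in the mouse (chr11:84518284-84525535, minus strand), stood at 50.7 CPM (45.4 to 56.4) in Gsc-positive, Mesp1-low cells and 5.50 CPM (5.01 to 6.03) in comparison cells, a ratio of 9.21 (7.97 to 10.6). Mixl1, a Nodal-responsive homeobox gene of the streak (chr1:180693043-180697034, minus strand), stood at 213 CPM and 42.9 CPM, a ratio of 4.96 (4.66 to 5.28). Eomes, the T-box factor of streak and endoderm specification (chr9:118478212-118486132, plus strand), stood at 116 CPM and 27.6 CPM, a ratio of 4.19 (3.85 to 4.55).

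Foxa2, the forkhead factor of anterior streak, endoderm and node (chr2:148042877-148046969, minus strand), summed to 25 UMIs in 13 of the 270 Gsc-positive, Mesp1-low cells and 53 UMIs in 43 of the 3425 comparison cells. Those counts correspond to 3.79 CPM (2.45 to 5.60) and 0.638 CPM (0.478 to 0.835). A single Gsc-positive, Mesp1-low cell supplied 5 of the 25 UMIs. Of the 13 Foxa2-positive cells, 12 also had an Eomes UMI and 4 had a Sox17 or Cer1 UMI. Cer1, a secreted Nodal, BMP and Wnt antagonist of anterior endoderm, had 9 UMIs in 3 cells. Chrd, which encodes the BMP antagonist Chordin, had 6 UMIs in 4 cells, and Sox17, an endoderm regulator, had 5 UMIs in 4 cells. The node gene Noto and the notochord signal Shh had 0 UMIs in both cell groups, below 0.455 CPM in the Gsc-positive, Mesp1-low cells (3 UMIs of their total). Apart from Gsc, which the choice of cells fixed, the anterior streak label was thus matched by the levels of Lhx1, Mixl1 and Eomes, while Foxa2 was found in a small number of cells. These levels were not particular to the cells. Knockout cells with at least 2 Gsc and at least 3 Mesp1 UMIs had 220 CPM of Lhx1, 243 of Mixl1 and 153 of Eomes. Those with at least 3 Mesp1 UMIs and no Gsc had 79.3, 139 and 100 CPM.

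Shares of cells with a UMI were compared after thinning each cell to 14000 UMIs, which left out 15 Gsc-positive, Mesp1-low cells and 199 comparison cells that were shallower. At that depth Mixl1 was found in 77.6% of Gsc-positive, Mesp1-low cells and 30.5% of comparison cells, against 84.4% and 40.2% before thinning. Eomes was found in 63.9% and 25.2% (79.6% and 34.7% before thinning), Lhx1 in 25.1% and 6.14% (32.2% and 8.88%), and Foxa2 in 4.31% and 0.899% (4.81% and 1.26%). As a background, 349 thinned knockout cells with the highest naive pluripotency counts, a class that should lack streak genes, held Mixl1 in 10.6%, Eomes in 17.8%, Lhx1 in 3.72% and Foxa2 in 0.287%, from a median of 24608 UMIs before thinning. Of the same naive-high cells 52.7% had a T UMI, so they are not free of streak RNA. In unthinned cells, Lhx1, Mixl1 and Eomes were found together in 70 of 270 Gsc-positive, Mesp1-low cells (25.9%) and 89 of 3425 comparison cells (2.60%). None of the 3 was found in 12 (4.44%) and 1360 (39.7%).

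**Figure D1:**
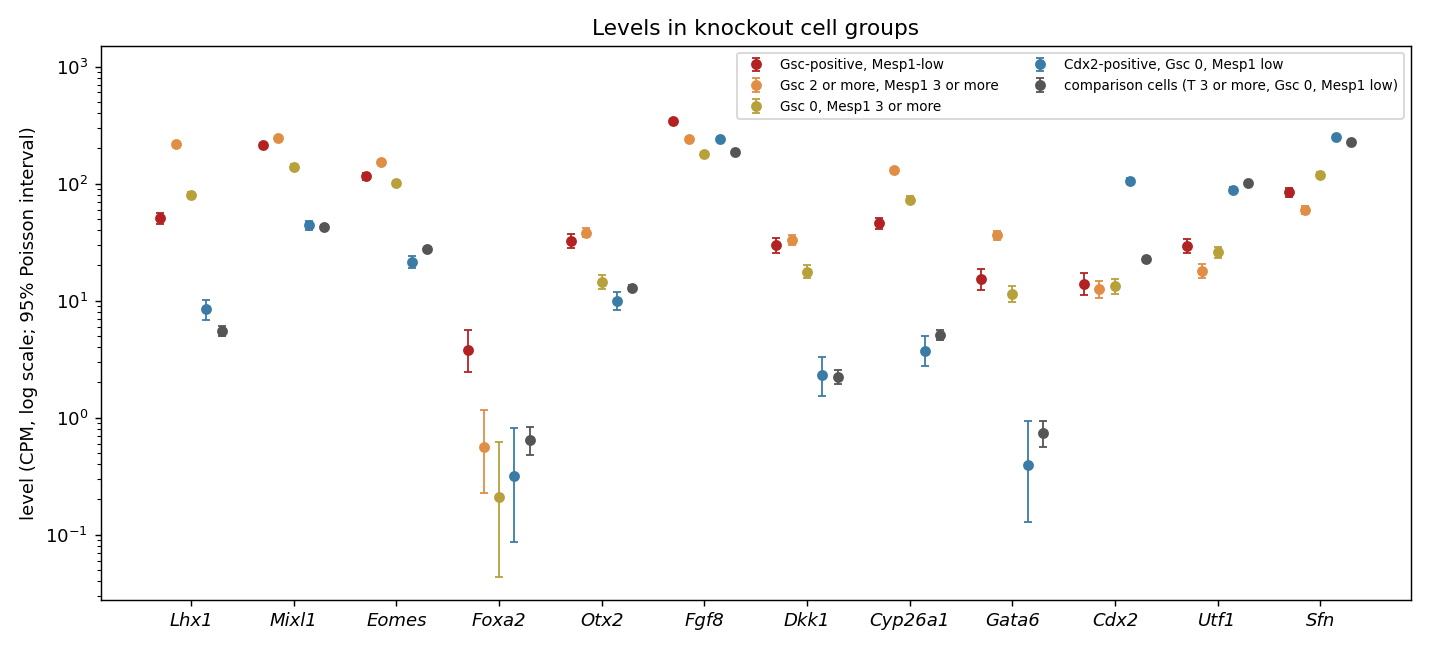
Level of 12 genes (CPM, log scale, with exact Poisson 95% intervals) in 5 groups of knockout cells, with the Gsc-positive, Mesp1-low cells leftmost for each gene and the comparison cells rightmost. Lhx1, Mixl1 and Eomes sit above the comparison cells in the Gsc-positive, Mesp1-low cells (50.7 against 5.50 CPM for Lhx1), Foxa2 is near the bottom of the axis in every group, and Utf1 and Sfn are lower.

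Across all genes, 6754 reached 10 CPM in the higher of the 2 cell groups. Of these, 130 (1.92%) were at least 1.5-fold higher in Gsc-positive, Mesp1-low cells and 229 (3.39%) at least 1.5-fold lower than in comparison cells, and a gene is called higher or lower below where it passed both limits. The median log2 ratio of all compared genes was 0.01. Of the 15 genes with the highest ratios, Dkk1, Lhx1, Mixl1 and Eomes are on the anterior streak and organizer list. Only Mixl1 and Eomes of the 15 reached 10 CPM in both groups. The others reached it in the Gsc-positive, Mesp1-low cells alone and so had to be higher there, and their ratios are descriptions. Dkk1 stood at 29.7 CPM in Gsc-positive, Mesp1-low cells and 2.23 CPM in comparison cells, a ratio of 13.3 (10.9 to 16.4). Gata6, a GATA factor of endoderm and cardiac mesoderm, stood at 15.2 CPM and 0.735 CPM, a ratio of 20.6 (14.9 to 28.9), from 100 UMIs in 53 cells and 61 UMIs in the comparison cells. Fgf10, a ligand of later mesoderm, stood at 12.3 and 0.650 CPM. Cyp26a1, a retinoic acid-degrading enzyme, stood at 45.7 and 5.08 CPM, 8.98-fold higher (7.72 to 10.4).

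The other leading genes had ratios between 4.19 and 14.7. They were the guidance receptor gene Nrp1 (11.7 and 0.795 CPM), the LIM-only cofactor gene Lmo1 (33.4 and 4.44 CPM), the membrane protein gene Pmp22 (18.8 and 2.31 CPM), the mesenchymal cadherin gene Cdh11 (11.8 and 1.24 CPM), the extracellular protease gene Adamts9 (13.2 and 1.96 CPM), the T-box gene Tbx3 (19.9 and 3.56 CPM), Vstm2b (16.7 and 2.88 CPM) and Gata3 (11.5 and 1.95 CPM), besides Lhx1, Mixl1 and Eomes. Each value pair gives Gsc-positive, Mesp1-low cells before comparison cells. The genes were not spread evenly over the cells: Dkk1 had UMIs in 58 of 270 cells, Gata6 in 53, Fgf10 in 42, Tbx3 in 57, and Mixl1 in 228. No single cell supplied more than 10.0% of the UMIs of Dkk1, Gata6, Fgf10, Lmo1, Cyp26a1 or Tbx3.

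The 15 lowest ratios began with Fgfbp1. Of the 15, Fgfbp1, Acta1, Ccl20, Cldn3, Gap43, Pla1a and Pou3f1 reached 10 CPM in comparison cells alone and so had to be lower in Gsc-positive, Mesp1-low cells. Fgfbp1, a secreted FGF-binding protein, stood at 3.34 CPM in Gsc-positive, Mesp1-low cells and 18.0 CPM in comparison cells, a 5.40-fold (3.55 to 8.64) lower level. Utf1, a chromatin-associated pluripotency factor, stood at 29.4 and 101 CPM, 3.43-fold lower (2.97 to 3.97). Id2, an inhibitor of bHLH factors that responds to BMP, stood at 19.9 and 67.3 CPM, 3.39-fold lower (2.85 to 4.06). Sfn, which encodes the epithelial 14-3-3 sigma protein, stood at 84.3 and 228 CPM, 2.71-fold lower (2.49 to 2.95), although 1 cell alone supplied 13.1% of its UMIs among Gsc-positive, Mesp1-low cells. Also among the 15 lowest were the tight junction gene Cldn3 (5.61 and 17.0 CPM), the simple epithelial keratin gene Krt19 (79.5 and 190 CPM), the polarity gene Crb3 (16.1 and 40.6 CPM), the calcium-binding S100a6 (123 and 320 CPM), the hormone precursor gene Trh (38.8 and 107 CPM) and the epiblast POU factor gene Pou3f1 (9.71 and 25.002 CPM). The rest were Acta1, Ccl20, Gap43, Nefm and Pla1a, 2.60-fold to 3.37-fold lower. Levels below those of comparison cells were not particular to the cells for Utf1, Id2 and Sfn. Knockout cells with at least 3 Mesp1 UMIs and no Gsc had 25.9, 27.3 and 119 CPM of them.

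**Figure D2:**
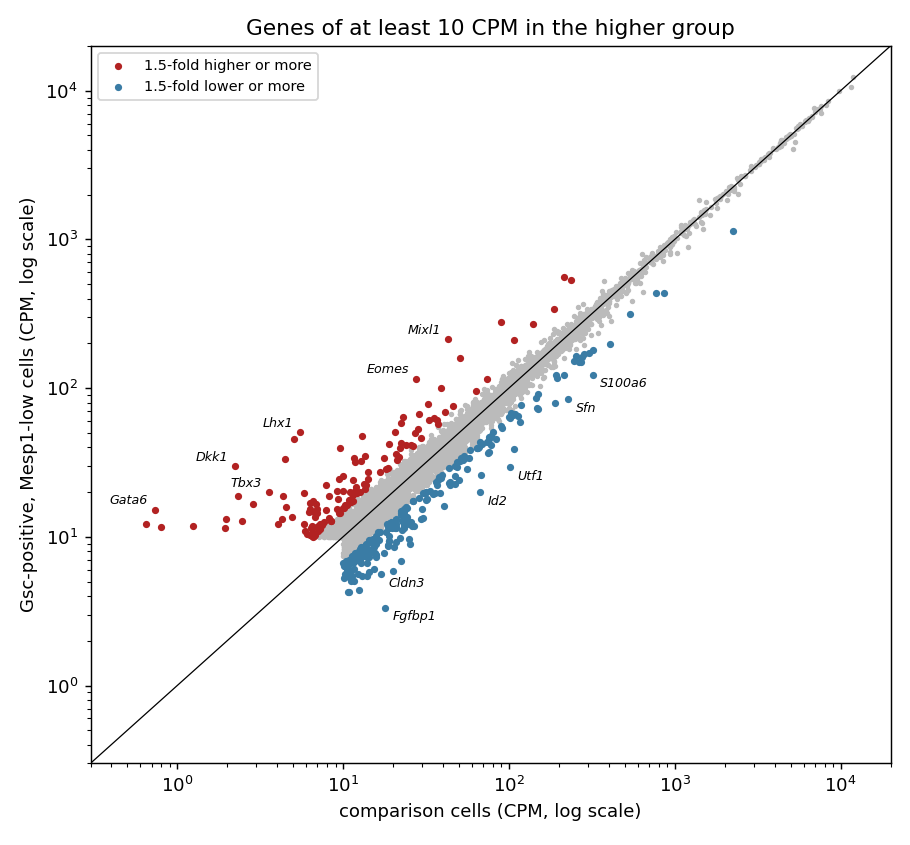
Each point is a gene of at least 10 CPM in the higher group, with its level in Gsc-positive, Mesp1-low cells on the vertical axis and in comparison cells on the horizontal axis (CPM, both log scale). Red points (130 genes) are at least 1.5-fold higher and blue points (229 genes) at least 1.5-fold lower, most genes lie near the line of equality, and 12 of the genes named in the text are labelled.

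Gene lists chosen for streak-stage cells placed these genes by role. Among all compared genes 1.92% were called higher and 3.39% lower, the background for the list counts here and below. No such background was computed for genes at the limit in both groups. Some genes, Lhx1 and Mixl1 among them, are on several lists and are counted in each. Of 24 anterior streak and organizer genes, Gsc among them, 11 others reached the level limit, and 9 of the 11 were called higher and 0 lower (list median log2 ratio 1.17). Of the 11, Lhx1, Dkk1 and Lefty2 reached 10 CPM in the Gsc-positive, Mesp1-low cells alone, and of the other 8, at or above the limit in both groups, 6 were called higher. Besides Lhx1, Mixl1, Eomes and Dkk1 these were Otx2, a homeobox gene of anterior epiblast (32.3 CPM in Gsc-positive, Mesp1-low cells and 12.8 CPM in comparison cells), the Nodal co-receptor gene Tdgf1 (532 and 235 CPM), the streak ligand gene Fgf8 (341 and 187 CPM), the Nodal antagonist gene Lefty2 (17.9 and 9.26 CPM) and the zinc-finger gene Zic2 (42.9 and 22.3 CPM). Nodal itself stood at 63.7 and 76.5 CPM. Sebox and Hesx1 had no UMI in the Gsc-positive, Mesp1-low cells. Of 15 primitive streak genes, T and Gsc among them, 12 others were compared, and 6 were called higher and 0 lower. The 6 were Lhx1, Mixl1, Eomes, Fgf8, Cyp26a1 and Evx1, a homeobox gene of the streak (39.6 and 21.9 CPM), while Wnt3 (48.2 and 34.1 CPM), Wnt8a (17.6 and 14.7 CPM) and Fst (349 and 261 CPM) did not reach the fold. Lhx1 and Cyp26a1 reached 10 CPM in the Gsc-positive, Mesp1-low cells alone. Of the 9 primitive streak genes at the limit in both groups, 4 were called higher.

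Of 18 nascent and paraxial mesoderm genes, 9 were compared and 9 were called higher (median log2 ratio 1.38). The count is a description only, because 5 of the 9 (Snai1, Cyp26a1, Pmp22, Cdh11 and Lefty2) reached 10 CPM in the Gsc-positive, Mesp1-low cells alone and so had to be higher there. The 9 included the transition factor gene Snai1 (12.1 CPM in Gsc-positive, Mesp1-low cells and 4.03 CPM in comparison cells), fibronectin, Fn1 (160 and 51.0 CPM), the Notch ligand gene Dll3 (20.5 and 10.0 CPM), the Wnt potentiator gene Rspo3 (42.0 and 18.9 CPM) and Phlda2 (558 and 214 CPM), whose ratio of 2.60 was 1.51 with at least 3 T UMIs in both groups and 1.34 among cells of low chromosome 11 share. The levels of these 5 genes were not particular to the cells. Knockout cells with at least 3 Mesp1 UMIs and no Gsc had 35.3 CPM of Snai1, 193 of Fn1, 33.5 of Dll3, 43.8 of Rspo3 and 1313 of Phlda2. From the 16 lateral and extraembryonic mesoderm genes, 8 were compared and 7 were called higher (median 1.62), among them Bmp4 (12.7 and 2.47 CPM), Msx2 (18.8 and 4.36 CPM) and Msx1 (60.7 and 33.1 CPM). Here too 5 of the 8 (Bmp4, Tbx3, Msx2, Gata6 and Myl7) reached the limit in the Gsc-positive, Mesp1-low cells alone, so the count and median are descriptions. Both compared blood and endothelial genes were called higher: Etv2, an inducer of endothelial fate, stood at 101 and 38.8 CPM, and its partner Lmo2, which reached the limit in the Gsc-positive, Mesp1-low cells alone, at 16.5 and 6.88 CPM. Cells with at least 2 Lmo2 UMIs made up 7.04% of Gsc-positive, Mesp1-low cells and 2.89% of comparison cells, and Gata1 and Fli1 had no UMI in the Gsc-positive, Mesp1-low cells.

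Mesp1, used only through its upper limit, left a residue: it stood at 25.2 CPM in Gsc-positive, Mesp1-low cells and 13.3 CPM in comparison cells, with no UMI in 54.8% and 72.3% of the cells. Restricting both to cells with no Mesp1 UMI left 148 Gsc-positive and 2475 comparison cells. The Lhx1 ratio there was 6.75, the Gata6 ratio 17.3 and the Dkk1 ratio 9.40. The ratios of these 3 genes were thus lower than in the full groups in cells without a Mesp1 UMI, and all 3 stayed past the fold.

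Signalling genes differed in part. Among ligands, receptors and antagonists of the Nodal pathway, 10 of 22 were compared and 3 were called higher, namely Tdgf1, Lefty2 and Lefty1, a Nodal antagonist gene (75.4 CPM in Gsc-positive, Mesp1-low cells and 46.2 CPM in comparison cells), and 0 lower. In the Wnt list, 15 of 29 were compared: Dkk1 and the feedback gene Nkd1 (12.7 and 8.44 CPM) were called higher and the ligand gene Wnt6 (17.9 and 32.2 CPM) lower, with a median of 0.15. In the BMP list, 10 of 19 were compared: Bmp4, Msx1, Msx2 and the decoy receptor gene Bambi (20.2 and 9.15 CPM) were called higher and Id2 lower, while Id1 stood at 388 and 552 CPM and Id3 at 209 and 206 CPM. In the FGF list, 11 of 19 were compared: Fgf8, the epiblast ligand gene Fgf5 (50.7 and 20.5 CPM) and the feedback gene Il17rd (28.5 and 18.2 CPM) were called higher, and the phosphatase gene Dusp4 (9.40 and 19.0 CPM) lower. Of 15 Notch genes, 4 were compared and 3 called higher: Dll3, Hes1 (95.7 and 63.0 CPM) and Nrarp (10.3 and 6.35 CPM). Lefty2, Dkk1, Nkd1, Bmp4, Msx2, Bambi and Nrarp reached 10 CPM in the Gsc-positive, Mesp1-low cells alone and so had to be higher there. Dusp4 reached it in comparison cells alone. Among genes at the limit in both groups, 2 of 9 Nodal, 0 of 13 Wnt and 1 of 7 BMP genes were called higher. The same held for 3 of 9 FGF and 2 of 3 Notch genes.

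Adhesion and cytoskeletal genes went mostly the other way. Of 15 epithelial genes, 13 were compared, and 0 were called higher and 9 lower (median log2 ratio -0.84), among them Cldn3, Crb3, Krt19 and Krt8 (180 CPM in Gsc-positive, Mesp1-low cells and 321 CPM in comparison cells), while Tjp1 stood at 49.3 and 54.5 CPM. Among all compared genes 3.39% were called lower. Cldn3 and Cldn4 reached 10 CPM in comparison cells alone and so had to be lower. Of the 11 epithelial genes at the limit in both groups, 7 were called lower. Of 14 genes of the mesenchymal transition, 7 were compared: Snai1, Fn1 and the N-cadherin gene Cdh2 (35.2 and 13.5 CPM) were called higher and Tgfb1i1 lower, while Vim, a mesenchymal filament gene, stood at 302 and 352 CPM. Snai1 reached the limit in the Gsc-positive, Mesp1-low cells alone and Tgfb1i1 in comparison cells alone. Of the 4 transition genes at the limit in both groups, 2 were called higher and 0 lower. Of 14 contractile genes and targets of serum response factor, 11 were compared, and 0 were called higher and 6 lower (median -0.57), with Tagln at 198 and 407 CPM and Cnn1 at 15.5 and 29.9 CPM. Ctgf reached the limit in comparison cells alone, and 5 of the 10 contractile genes at it in both groups were called lower.

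Pluripotency genes showed no common direction. Of 12 compared core pluripotency genes Tdgf1 was called higher, and Utf1 and Dppa4 (19.6 CPM in Gsc-positive, Mesp1-low cells and 35.8 CPM in comparison cells) lower, for a median log2 ratio of 0.02. Pou5f1 stood at 101 and 125 CPM and Nanog at 53.2 and 48.3 CPM. Of 11 compared formative epiblast genes 5 were called higher, among them Otx2, Fgf5 and Zic2, and Pou3f1 lower. Of 5 compared naive genes Tbx3, which mesoderm also expresses, was called higher, and Zfp42 and Spp1 lower. Tbx3 reached the level limit in the Gsc-positive, Mesp1-low cells alone, and Pou3f1 and Spp1 in comparison cells alone. Other cell types left few traces: the summed level of the 12 neuroectoderm genes was 84.9 and 102 CPM, that of the 12 visceral endoderm genes 20.8 and 24.5 CPM, that of the 9 trophoblast genes 77.4 and 116 CPM and that of the 17 definitive endoderm genes 158 and 308 CPM. Of the definitive endoderm genes only Gata6, Trh and Krt19 reached the level limit, Gata6 called higher and the other two lower, and Hnf4a, Spink1 and Nkx2-3 had no UMI in the Gsc-positive, Mesp1-low cells. Ttr and Afp, visceral endoderm genes, and Sox1, Pax6 and Six3, neural genes, had no UMI there either.

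In the lists of oxygen sensing, metabolism and the cell cycle 0 genes were called higher, against 1.92% of all compared genes. Lower calls, 3.39% among all compared genes, were a larger share among targets of hypoxia-inducible factor and were absent from the metabolism and cell cycle lists. Of 13 compared targets of hypoxia-inducible factor, 0 were called higher and 2 lower, the glucose transporter gene Slc2a1 (40.3 CPM in Gsc-positive, Mesp1-low cells and 66.3 CPM in comparison cells) and Ddit4 (38.5 and 58.4 CPM). Of 13 glycolysis genes and 20 S phase genes compared, 0 passed the fold in either direction, with Ldha, encoding a lactate dehydrogenase subunit, at 1843 and 1398 CPM. The 21 genes of G2 and M phase also had 0 calls, with a median log2 ratio of 0.29 and ratios from 1.03 for Kif23 to 1.36 for Tacc3. Of 13 compared immunoproteasome and interferon genes, 0 were called higher and 1, Bst2, lower (66.9 and 109 CPM). Of 10 compared dissociation stress genes, 0 were called higher and 2 lower, Ier3 (7.74 and 17.7 CPM) and Atf3 (17.3 and 26.5 CPM). Ier3 reached the level limit in comparison cells alone.

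**Figure D3:**
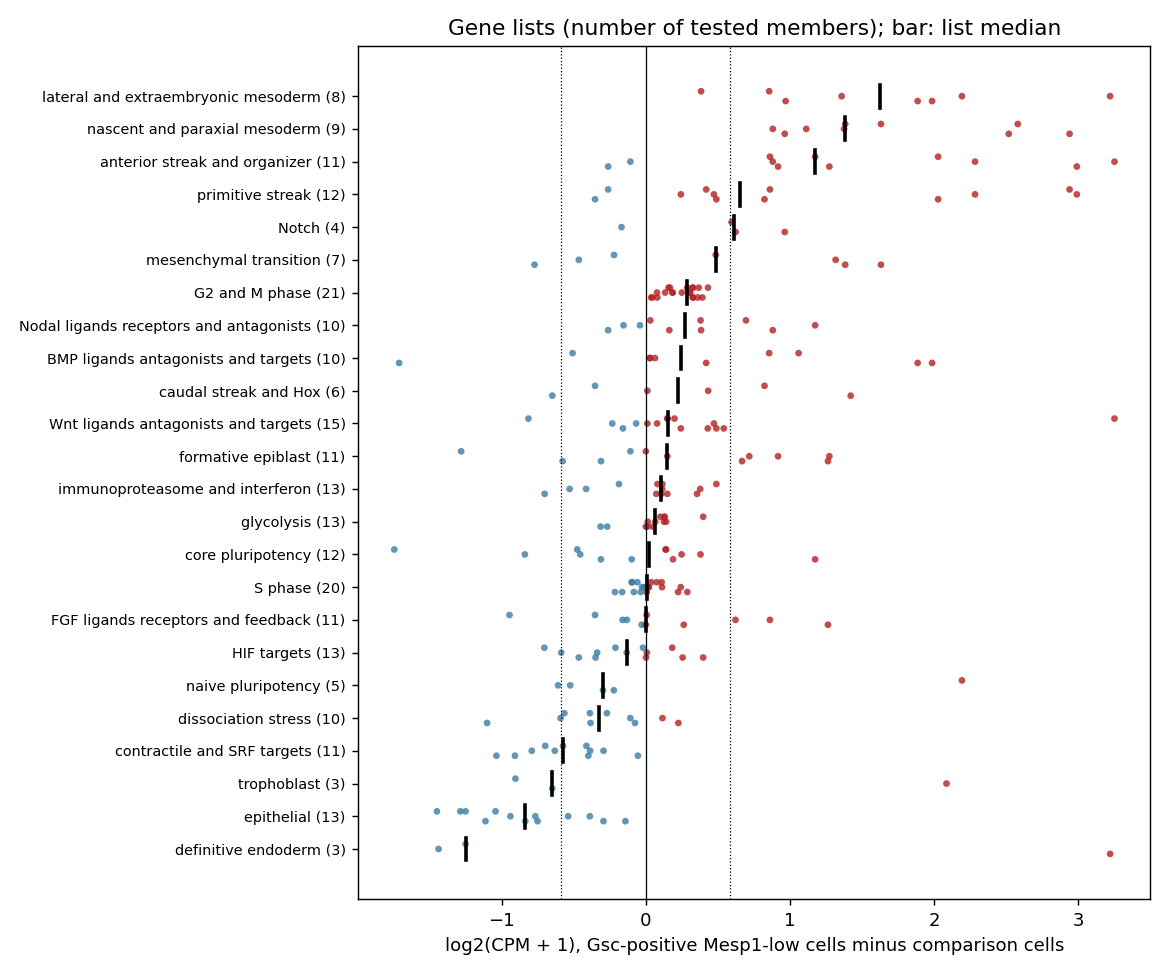
Log2 ratio (1 CPM added to each level) of Gsc-positive, Mesp1-low cells over comparison cells for each compared gene of the lists with at least 3 such genes; each point is a gene, the black bar is the list median, and dotted lines mark 1.5-fold. The mesoderm and anterior streak lists have medians of 1.62, 1.38 and 1.17, the epithelial list has -0.84, and the glycolysis and S phase lists sit at 0.07 and 0.01.

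Levels were also read with cells ordered by their Gsc count, the count that chose them. All cells of this series had at least 3 T UMIs and fewer than 3 Mesp1 UMIs: 3425 cells had 0 Gsc UMIs (the comparison cells), 341 had 1, 89 had 2, 88 had 3 to 4 and 36 had 5 or more. In that order the Lhx1 level was 5.50, 12.9, 26.6, 41.2 and 74.2 CPM. Mixl1 was 42.9, 95.2, 176, 208 and 293 CPM, and Eomes was 27.6, 52.6, 88.7, 98.3 and 134 CPM. These 3 levels were higher in each class than in the one before it, including the cells with 1 Gsc UMI that belong to neither compared group. The classes with 2 or more Gsc UMIs are Gsc-positive, Mesp1-low cells, whose difference from the class with 0 was already known. The order therefore repeats the comparison above in part and is a description. Otx2 was 12.8, 17.2, 23.9, 32.0 and 47.4 CPM, and Fgf8 was 187, 312, 350, 385 and 437 CPM. Utf1 ran in the other direction, at 101, 59.3, 34.1, 26.5 and 21.6 CPM, as did Sfn, at 228, 170, 84.3, 64.5 and 55.6 CPM.

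Several genes had no such order. T was 449, 479, 520, 474 and 488 CPM over the same classes, and Pou5f1 was 125, 116, 106, 117 and 106 CPM. Dkk1 was 2.23, 4.42, 19.5, 10.97 and 16.5 CPM, and Etv2 was 38.8, 52.3, 102, 72.2 and 88.6 CPM. Foxa2 was 0.638, 0.227, 0, 3.66 and 11.3 CPM, so that it was highest among the 36 cells with the most Gsc. Median depth was 21714, 23174, 22472, 23086 and 25278 UMIs, and the part of depth in these orders was not tested.

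**Figure D4:**
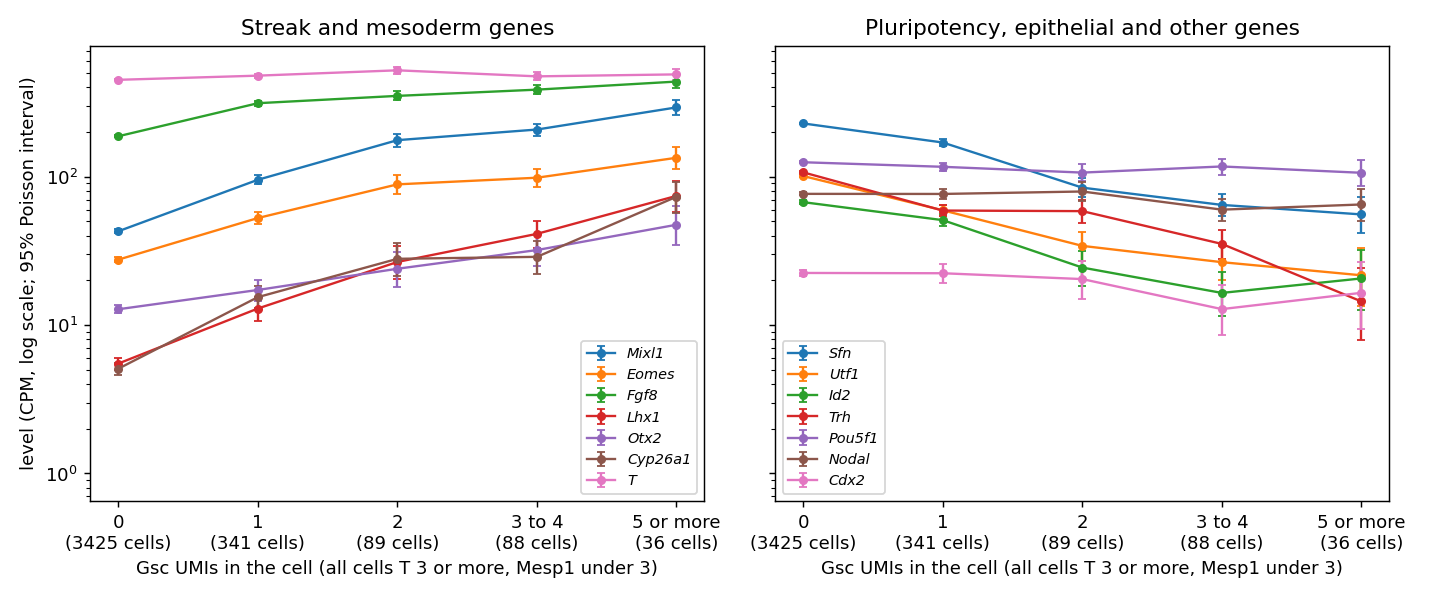
Levels (CPM, log scale, with exact Poisson 95% intervals) by the number of Gsc UMIs in a cell, among knockout cells with at least 3 T UMIs and fewer than 3 Mesp1 UMIs; the left panel shows streak and mesoderm genes, the right panel pluripotency, epithelial and other genes. Lhx1, Mixl1 and Eomes climb over all 5 classes (Lhx1 from 5.50 CPM at 0 to 74.2 CPM at 5 or more), T stays between 449 and 520 CPM, and Utf1 and Sfn decline.

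At the limits themselves, the 106 cells just inside with 2 Gsc UMIs had 165 CPM of Mixl1, 26.0 CPM of Lhx1 and 91.5 CPM of Eomes, and the 445 cells just outside with 1 Gsc UMI and fewer than 3 Mesp1 UMIs had 91.0, 15.6 and 58.9 CPM. The 44 cells with 2 Mesp1 UMIs had 70.8 CPM of Lhx1 and 254 CPM of Mixl1, and the 29 cells just outside with 3 Mesp1 UMIs had 156 and 184 CPM. Levels on the 2 sides of a limit thus differed less than those of the full groups for Lhx1, Mixl1 and Eomes at the Gsc limit.

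Most knockout cells with Gsc also carried Mesp1: of 742 cells with at least 2 Gsc UMIs, 472 (63.6%) had at least 3 Mesp1 UMIs. Set against those 472 cells, Gsc-positive, Mesp1-low cells had less Lhx1 (50.7 and 220 CPM, 4.34-fold lower), Cyp26a1 (45.7 and 130 CPM, 2.85-fold lower), Gata6 (15.2 and 36.1 CPM, 2.38-fold lower) and Snai1 (12.1 and 47.0 CPM, 3.87-fold lower). They had more Nodal (63.7 and 31.5 CPM, a ratio of 2.02, 1.76 to 2.33), Lmo2 (16.5 and 6.94 CPM), Bmp4 (12.7 and 7.35 CPM) and Fgf8 (341 and 242 CPM). Foxa2 had 3.79 CPM in Gsc-positive, Mesp1-low cells and 0.565 CPM in cells with both genes, a ratio of 6.71 (2.82 to 18.4). Dkk1 (29.7 and 33.1 CPM), Fgf10 (12.3 and 12.9 CPM) and Otx2 (32.3 and 38.1 CPM) lay within 1.2-fold.

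Whether the genes that accompanied Gsc did so among Mesp1-expressing cells was read from the same 472 cells and 583 knockout cells with at least 3 Mesp1 UMIs but no Gsc. Of 6501 genes compared, 48 (0.738%) were at least 1.5-fold higher and 60 (0.923%) at least 1.5-fold lower in the cells with Gsc. Lhx1 stood at 220 and 79.3 CPM, a ratio of 2.77 (2.58 to 2.97), Lmo1 at 91.1 and 29.1 CPM, a ratio of 3.13 (2.79 to 3.51), Gata6 at 36.1 and 11.3 CPM, a ratio of 3.18 (2.65 to 3.83), and Otx2 at 38.1 and 14.5 CPM, a ratio of 2.63 (2.22 to 3.11). Mixl1 had a ratio of 1.75 and Eomes one of 1.52, and Sfn had a ratio of 0.50. T (308 and 309 CPM), Tbx3 (37.9 and 32.6 CPM), Pmp22 (19.1 and 16.3 CPM) and Gata3 (9.28 and 9.65 CPM) differed by less than 1.2-fold here. Mesp1 itself stood at 1164 and 929 CPM.

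Gsc-positive, Mesp1-low cells also varied among themselves with T, which had not been used to choose them. They comprised 57 cells with 0 to 2 T UMIs (median depth 19796 UMIs), 107 with 3 to 9 (21498 UMIs) and 106 with 10 or more (26145 UMIs), and in that order Dkk1 was 94.9, 19.97 and 11.8 CPM. Lmo1 was 95.8, 32.2 and 9.46 CPM, Tbx3 61.0, 17.9 and 5.07 CPM, Fgf10 35.6, 12.6 and 2.70 CPM, and Bmp4 32.2, 12.2 and 5.41 CPM. Lhx1 was 94.9, 47.7 and 35.5 CPM and Eomes 184, 120 and 84.5 CPM. Fgf8 went the opposite way, at 161, 356 and 399 CPM, as did Nodal at 39.8, 61.6 and 75.01 CPM and Pou5f1 at 54.2, 102 and 118 CPM. Mixl1 had no order, at 225, 198 and 219 CPM, nor did Foxa2, at 5.09, 3.67 and 3.38 CPM from 6, 9 and 10 UMIs.

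Since every comparison cell had at least 3 T UMIs, the 213 Gsc-positive, Mesp1-low cells that also did were compared with them alone. Ratios then were 7.45 for Lhx1, 4.89 for Mixl1, 3.65 for Eomes and 20.4 for Gata6, but 6.97 rather than 13.3 for Dkk1, 4.45 rather than 7.51 for Lmo1 and 3.06 rather than 5.57 for Tbx3. The 57 cells with little T thus contributed much of the Dkk1, Lmo1 and Tbx3 difference and little of that in Mixl1. By Mesp1, the 122 cells with 1 or 2 UMIs had 68.9 CPM of Lhx1 and 61.8 CPM of Cyp26a1, and the 148 cells with none had 34.1 and 31.0 CPM.

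The posterior streak was represented by 477 knockout cells with at least 2 Cdx2 UMIs, no Gsc and fewer than 3 Mesp1 UMIs; 434 of them were also comparison cells, so this comparison repeats part of the one above. Of 6817 genes compared, 125 (1.83%) were at least 1.5-fold higher and 314 (4.61%) at least 1.5-fold lower in Gsc-positive, Mesp1-low cells. The anterior gene Otx2 stood at 32.3 CPM in Gsc-positive, Mesp1-low cells and 9.99 CPM in Cdx2-positive cells, a ratio of 3.23 (2.58 to 4.06), Eomes at 116 and 21.5 CPM and Lhx1 at 50.7 and 8.41 CPM. Gata6 stood at 15.2 and 0.397 CPM, and Fgf10 at 12.3 and 0.238 CPM, with only 3 Fgf10 UMIs in the Cdx2-positive cells. Nkx1-2, a homeobox gene of the caudal epiblast, stood at 2.28 and 11.3 CPM, 4.95-fold lower (2.90 to 9.08). Other posterior genes did not separate the groups: Hoxb1 stood at 27.0 and 26.3 CPM, a ratio of 1.03 (0.850 to 1.23), and Evx1 at 39.6 and 29.3 CPM. Of the caudal and Hox list 6 genes were compared, 1 called higher (Greb1) and 1 lower (Nkx1-2). Nkx1-2 reached 10 CPM in Cdx2-positive cells alone and so had to be lower in Gsc-positive, Mesp1-low cells. Greb1, Otx2, Lhx1, Gata6 and Fgf10 reached it in the Gsc-positive, Mesp1-low cells alone and so had to be higher there. These differences are descriptions only. Among Gsc-positive, Mesp1-low cells 20 (7.41%) had at least 2 Cdx2 UMIs themselves, against 434 (12.7%) of comparison cells.

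A chromosome-wide property of the library moved with the cell groups. The share of a cell's UMIs from chromosome 8 genes had 2 modes among knockout cells, near 5% and near 7%, with a library median of 6.38%. Its median was 5.02% in Gsc-positive, Mesp1-low cells and 6.57% in comparison cells, and 64 (23.7%) and 1896 (55.4%) lay above the library median. For chromosome 11, 162 (60.0%) and 1449 (42.3%) lay above the median share of 10.3%. Comparisons were therefore repeated on each side of the chromosome 8 median, with 206 and 1529 cells on the low side and 64 and 1896 on the high side. Low-side and high-side ratios were 7.60 and 9.94 for Lhx1, 4.81 and 4.18 for Mixl1, 3.84 and 3.62 for Eomes, 14.5 and 32.8 for Gata6, and 12.9 and 10.7 for Dkk1. Fgf8 had 1.38 and 2.11. Foxa2 had 7.71 (4.19 to 14.2) and 1.02 (0.0250 to 6.17), with 1 UMI in the Gsc-positive, Mesp1-low cells of the high side, so its high-side ratio is not known at this depth. The contractile list had 8 of 11 compared genes lower on the low side and 2 of 11 on the high side. Bmp4 had ratios of 4.27 and 2.78 and Msx2 of 3.72 and 2.35. All 15 genes with the highest ratios passed 1.5-fold on both sides, the smallest ratio on the high side being 1.94 for Vstm2b, as did all 15 with the lowest, of which Krt19 was 1.90-fold lower on the high side. These genes were picked from the same cells, so this is a description. High-side counts were small in the Gsc-positive, Mesp1-low cells: 7 Vstm2b UMIs (interval of the ratio 0.762 to 4.14), 5 of Fgf10 and 4 of Acta1.

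**Figure D5:**
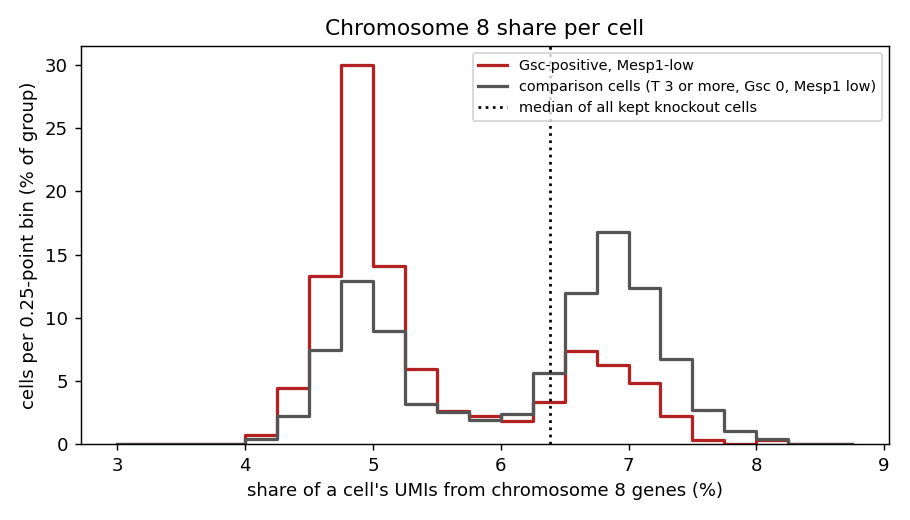
Share of each cell's UMIs from chromosome 8 genes (horizontal axis, %) against the percentage of the group's cells in each bin, for Gsc-positive, Mesp1-low cells and comparison cells. Both groups have 2 modes, near 5% and near 7%, the dotted line is the median of all kept knockout cells (6.38%), and 23.7% of Gsc-positive, Mesp1-low cells against 55.4% of comparison cells lie above it.

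Doublets were not removed from the compared groups, because the automatic threshold of the doublet caller marked 0 knockout barcodes. The highest doublet scores, removed as an alternative, were held by 26 (9.63%) Gsc-positive, Mesp1-low cells and 226 (6.60%) comparison cells. Without them, 126 of the 130 genes called higher and 216 of the 229 called lower still passed the fold.

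In the wild type library almost no cell met the same limits: 7 of 9227 kept barcodes did (0.0759%, 0.0305 to 0.156%), and the whole library held 93 Gsc UMIs (0.412 CPM) against 3472 (20.1 CPM) in the knockout library. With 1 library per genotype these are the counts of those libraries, with no test between genotypes. The 7 wild type barcodes held 10 Eomes, 7 Mixl1, 11 Otx2 and 43 Fgf8 UMIs, and 0 UMIs of Lhx1, Foxa2, Cer1, Sox17 or Mesp1. T was found in 1 of them.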

How the data were processed

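One droplet library per genotype was measured, of PHD2 knockout and wild type AB2.2 cells, and groups were taken from the sample titles. The authors deposited matrices of UMI counts per gene and barcode, which per the file headers come from Cell Ranger 4.0.0. Seurat, Cell Ranger and the mm10 build are named in the submitters' processing notes. Kept barcodes had at least 1000 genes and at most 10% mitochondrial UMIs, from 7713 knockout barcodes (173470962 UMIs) and 9651 wild type barcodes (226179474 UMIs). Counts were summed per cell group and scaled to CPM. Levels have exact Poisson and ratios exact conditional binomial (Clopper-Pearson) 95% intervals, for counting error only. A gene was compared at 10 CPM or more in the higher group, called at a plain ratio of 1.5, and ranked by log2(CPM + 1) ratios, which understate low genes. Gsc, T and Mesp1 were left out of calls, and Gsc, Cdx2 and Mesp1 against Cdx2-positive cells.

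Genes are named if among the 15 highest or lowest ratios (8 against Cdx2-positive cells; ribosomal, mitochondrial and predicted genes left out), at either end of a gene list or its most abundant member, or a marker; genes shown for the cells with at least 3 Mesp1 UMIs were taken from these. The cells, the 32 gene lists and the rules were chosen with earlier results of these data known. Chromosome shares used GENCODE M21. Simulated counts with 2-fold or 4-fold changes were called in 100% of changed and 0.0620% of unchanged genes for the comparison cells (6648 genes), and 0.275% of unchanged genes for Cdx2-positive cells (6736 genes). For the comparison cells the intervals held the true fold in 86% to 98% of changed genes, by size of change. These were Poisson sums, changed only in genes well above the level limit in the reference group. They do not cover changed genes near or below the limit there, or RNA spread unevenly over cells. Scrublet ran through scanpy 1.11.5, under Python 3.11.15 with NumPy 2.4.6, SciPy 1.17.1 and pandas 2.3.3. A few genes that the naming rule selects are not reported here.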

Additional observations from a re-analysis of the deposited data

How the results depend on the processing

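Counts of genes were recomputed under 16 alternatives each, and 53 of 64 values stayed within 1.5 times the reported count. With a limit of 50 CPM the counts against comparison cells were 25 higher and 60 lower, and against Cdx2-positive cells 22 higher and 80 lower, as fewer genes enter. Among cells of high chromosome 8 share, where 64 Gsc-positive, Mesp1-low cells remain, they were 243 higher and 392 lower, and 311 higher and 639 lower. With low chromosome 11 share, 209 genes were higher than in comparison cells and 266 higher than in Cdx2-positive cells, and with at least 3 Gsc UMIs 192 were higher than in Cdx2-positive cells; apart from the smaller cell numbers the cause was not tested. Of the 130 genes called higher, 88 to 130 still passed the fold and 122 to 130 kept a ratio above 1 over the settings that change cells or scaling, and of the 229 called lower, 149 to 229 still passed and 224 to 229 kept a ratio below 1. Among log2 ratios of 155 genes, 1925 of 2480 values were close to the reported one, 554 moved and 1 reversed: Myl7, called higher over all cells, had -0.093 with at least 3 T UMIs in both groups. Dkk1 ranged from 6.97 (at least 3 T UMIs) to 32.7 (comparison cells matched on total UMIs). Settings without Mesp1 UMIs, without Lmo2-positive cells and without shared barcodes were chosen after seeing the data. No paired analysis was possible because each genotype has 1 library and all compared cells come from the same one. Depth limits the genes near 10 CPM most, since the 270 cells hold few UMIs of each.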
